A study of Homo sapiens with 16 samples.

Results

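Nuclear genes encode most subunits of the oxidative phosphorylation machinery, and the transcripts of 90 of them were examined in HUH6, a human line derived from a hepatoblastoma, a liver tumor of childhood. The genes are the protein-coding entries whose GENCODE 29 symbols carry the stems of complex I (NDUFA, NDUFB, NDUFC, NDUFS and NDUFV with a number), complex II (SDHA to SDHD), complex III (UQCR), complex IV (COX4 to COX8) and complex V (ATP5), and they make up 90 of the 58735 genes counted. By complex there were 39, 4, 9, 17 and 21 genes. These stems leave out the subunits CYC1 and NDUFAB1, whose names follow another pattern.

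Cells received DMSO or 100 µM SLC-0111, an inhibitor of the carbonic anhydrases CAIX and CAXII, and were kept for 48 h in normoxia or in hypoxia, with oxygen at a partial pressure of 1%. The 4 groups held 4 libraries each, 16 in all. The labels call the replicates technical, so every p-value here measures the spread between such libraries and not between independent cultures. In 2 columns, 1 of normoxia SLC-0111 and 1 of hypoxia DMSO, the name conflicts with the labels on the replicate number, and these libraries are called unnumbered.

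The respiratory chain passes electrons from NADH through complex I, and from succinate through complex II, to coenzyme Q, then through complex III and cytochrome c to complex IV, which reduces oxygen. Complexes I, III and IV pump protons across the inner mitochondrial membrane, and complex V, the ATP synthase, lets them flow back to make ATP. The mitochondrial genome encodes a core of subunits of every complex except complex II, so each of the others is built from the products of both genomes.

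Libraries held between 3298106 counts (hypoxia DMSO 3) and 49248964 counts (hypoxia SLC-0111 4). The subunit genes took 0.505% to 0.711% of the counts of a library. Markers of the hepatoblast and hepatocyte lineage were at 1 or more counts per 1000000 (CPM) in every library for 9 of 10 genes, with DLK1 the exception, and their summed level ran from 8790 to 11400 CPM. Of 8 markers of leukocytes, endothelium and fibroblasts, 3 reached 1 CPM in all libraries, with a sum of 68.1 to 98.3 CPM. In normoxia SLC-0111 4 the share of counts in protein-coding genes, mitochondrial ones included, was the lowest, 80.6%. Its share of counts from the mitochondrial genome was the highest, 15.3%. The part of these shares in the results was not tested beyond the fits given beside them.

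Levels are given as CPM of the library size scaled by TMM (the trimmed mean of M values). Set against exon length, which allows genes to be compared, the range within a complex was wide. In normoxia DMSO, complex IV was led by COX5A, the subunit of the matrix face, at 366 ± 19.5 CPM per kilobase (SD, n = 4) and complex V by ATP5MC3, a gene of the proton-carrying c ring, at 382 ± 22.4, and by ATP5F1B, the catalytic β subunit, at 375 ± 7.52. Complex I was highest at NDUFS5 (140 ± 11.5), complex II at SDHB (46.8 ± 1.88) and complex III at UQCRH (238 ± 8.66). SDHC, at 9.72 ± 0.17, is low on this scale, which used 1 principal transcript per gene, here a long one of 13566 bases. NDUFA4L2 (0.422), UQCRHL (0.391) and COX6B2 (0.328) were the lowest tested genes that share a family with an abundant subunit.

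Hypoxia lowered most of the subunit genes. In DMSO, the summed level of all 90 genes was 6937, 6737, 6606 and 6404 CPM in the normoxia libraries and 5844, 5194, 5942 and 4902 CPM in the hypoxia libraries, in the order 1, 2, 3, 4 and 1, 2, 3, unnumbered. The groups did not overlap, and hypoxia DMSO 1 and 3 lay above the other 2 hypoxia libraries. The ratio of the means was 0.82. By complex it was 0.847 for I, 0.811 for II, 0.853 for III, 0.806 for IV and 0.803 for V. In bulk RNA, fewer cells of a type and less RNA per cell cannot be told apart. Of the 9 tested lineage markers, 3 fell in this comparison, ALB, AFP and EPCAM, with log2 fold changes of -1.58, -0.70 and -0.26, and 2 rose, HNF4A and APOA1, by 0.61 and 0.21. Their summed level was 10100 to 10900 CPM in normoxia DMSO and 9510 to 11400 CPM in hypoxia DMSO. Of the 3 tested markers of other cells, COL1A1 fell (-0.39) and 0 rose, with sums of 74.8 to 80.8 and 68.1 to 82.0 CPM. The part of these markers in the result was not tested.

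**Figure D1:**
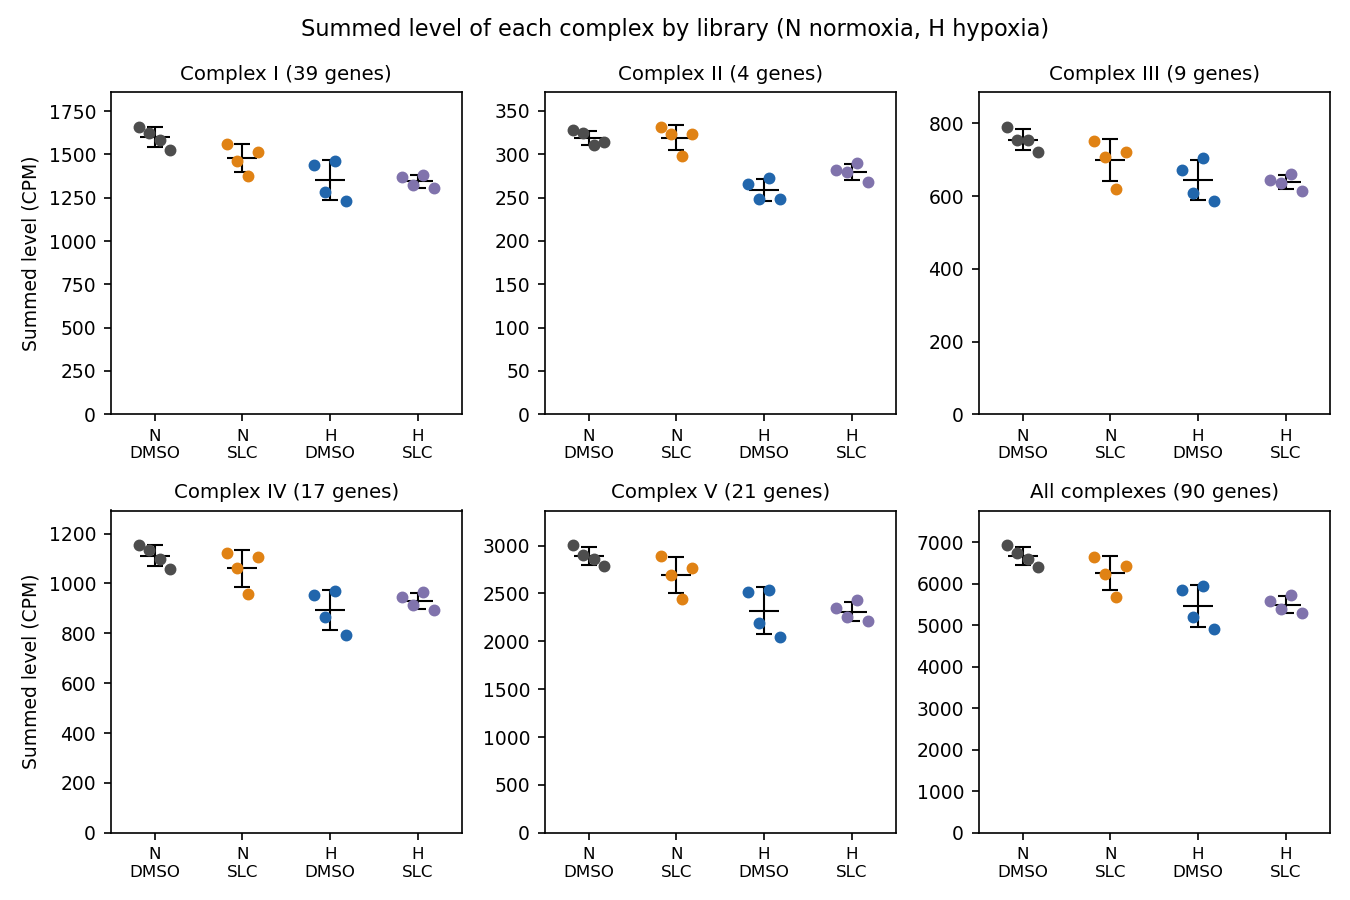
Summed level in CPM (vertical axis, from 0) of the genes of each complex and of all 90 genes in each library, with points for libraries and bars for the mean and SD of 4. In every panel the hypoxia DMSO libraries sit below the normoxia DMSO libraries, and normoxia SLC-0111 spreads downward to its library 4 (5691 CPM over all genes).

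Of the 90 genes, 84 passed the filter on low counts and were tested, with edgeR's quasi-likelihood test and Benjamini-Hochberg adjustment over all 18385 tested genes. In DMSO, 59 fell in hypoxia and 0 rose at an adjusted p under 0.05. They are 70.2% of the 84, against 24.8% of all tested genes called lower and 25.0% called higher. At an unadjusted p under 0.05 the counts were 62 lower and 0 higher, against 5054 lower and 5088 higher of all 18385 tested genes. The median log2 fold change was -0.31 in the 84 genes and -0.00 over all tested genes. For 41 of the 84, all hypoxia libraries lay below all normoxia libraries, against 21.9% of all tested genes, and 38 of those 41 passed the test. At the ends of the range, 1 gene fell by 9.53% and 1 fell by 42.9% of its level in normoxia.

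**Figure D2:**
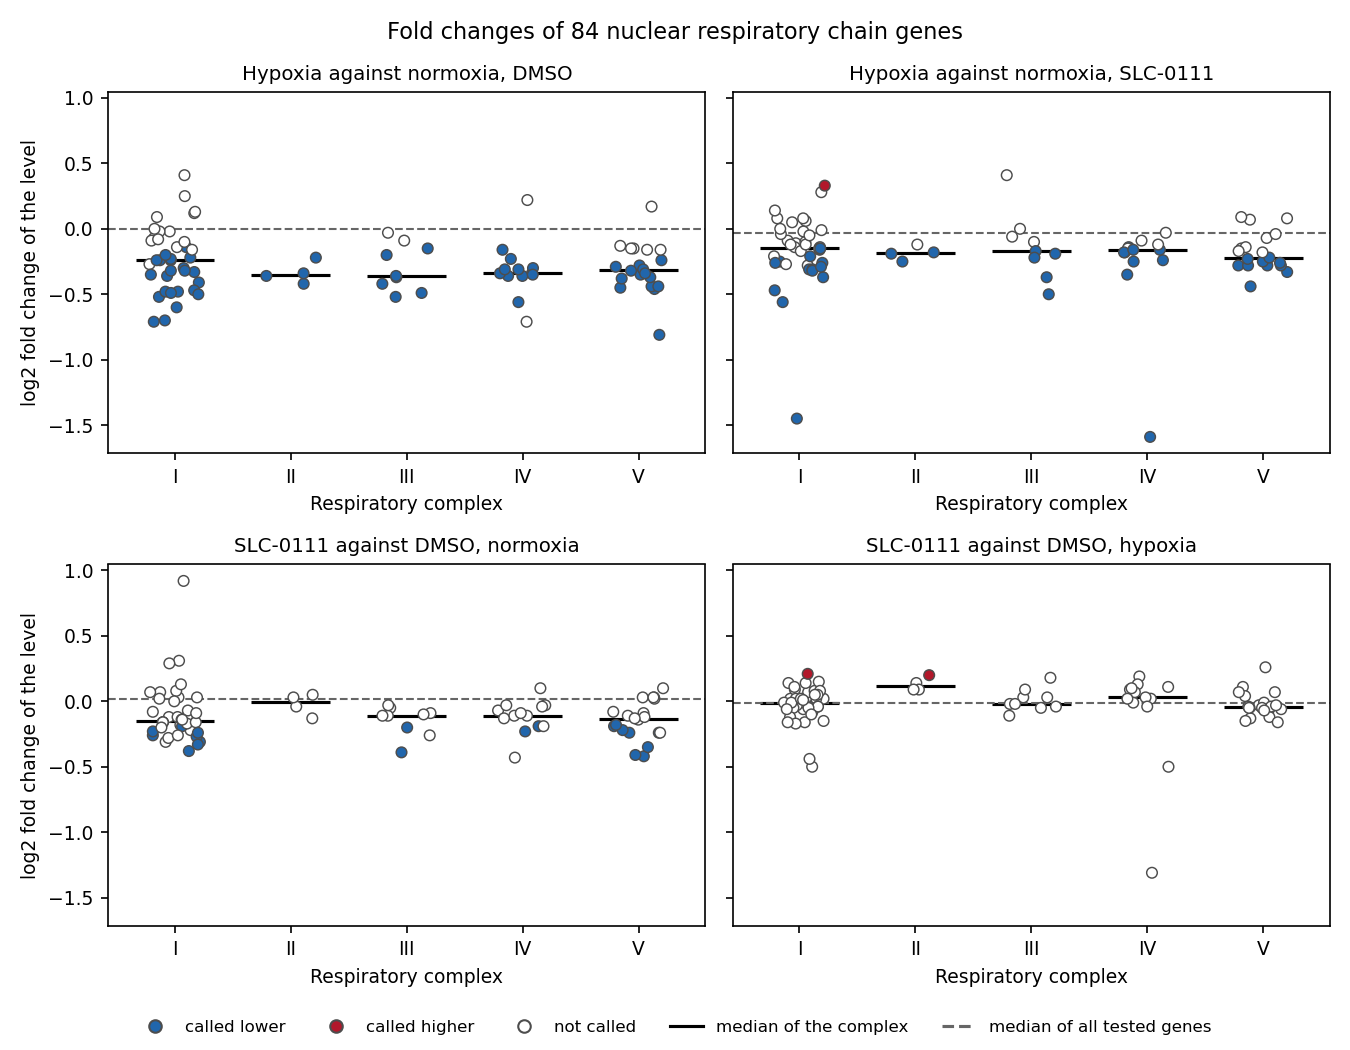
Log2 fold change of each of the 84 tested genes (points, vertical axis) by complex (horizontal axis) in 4 comparisons, filled blue where called lower and red where called higher; black lines are the median of a complex and dashed lines the median of all tested genes. In hypoxia with DMSO the medians of the 5 complexes lie between -0.36 and -0.24, and with SLC-0111 in hypoxia they lie between -0.04 and 0.11.

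In complex I, 23 of 38 tested genes fell in hypoxia with DMSO, and the parts of the complex differed in their counts. Of the membrane arm, which carries the proton pumps, 15 of 20 fell. Of the module that takes electrons from NADH, 4 of 10 fell, and of the module that reduces coenzyme Q, 3 of 6. These shares were not tested against each other. Counted the other way, 4 of the 7 nuclear core subunits, those conserved from bacteria, fell. So did 19 of the 31 other genes, which include NDUFA4 (called lower) and its relative NDUFA4L2 (not called).

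NDUFA12, a subunit at the joint of the NADH module and the rest of the complex, was at 51.9, 46.4, 48.8 and 49.1 CPM in normoxia DMSO and at 37.0, 26.9, 30.1 and 26.9 CPM in hypoxia DMSO. All hypoxia libraries were below all normoxia libraries. Its log2 fold change was -0.70 ± 0.09 (SE, adjusted p = 5.66e-07). NDUFC2 (chr11:78068304-78080219, GRCh38, minus strand), a small subunit of the membrane arm, was at 17.0, 18.3, 17.8 and 16.5 CPM in normoxia and 11.8, 10.3, 7.15 and 10.8 CPM in hypoxia. The groups did not overlap and library 3 of hypoxia was the lowest. The log2 fold change was -0.71 ± 0.09 (adjusted p = 4.72e-07), and 19.0% of its exon bases are shared with another gene. NDUFS7, which holds the last iron-sulfur cluster before coenzyme Q, fell by 0.60 ± 0.12 on the log2 scale (adjusted p = 0.000238), from 4.65 to 2.97 CPM in the mean.

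Several subunits of the same complex did not pass the test. NDUFS1, which holds iron-sulfur clusters, had a log2 fold change of -0.09 ± 0.04 (adjusted p = 0.0768). NDUFC1, a small membrane arm subunit, was at 36.6, 32.8, 34.7 and 31.7 CPM in normoxia DMSO and 39.1, 37.6, 37.2 and 34.3 CPM in hypoxia DMSO, and the groups overlapped (log2 fold change 0.13 ± 0.07, adjusted p = 0.134). NDUFA4, named as a complex I subunit and since assigned to complex IV, is counted here with complex I by its symbol. It fell by 0.36 ± 0.08 on the log2 scale (adjusted p = 0.000431).

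Complex II, succinate dehydrogenase, also serves the citric acid cycle and is encoded by nuclear genes alone. All 4 of its genes fell in hypoxia with DMSO. SDHB, the iron-sulfur subunit, was at 55.9, 55.3, 51.1 and 53.4 CPM in normoxia and at 44.0, 39.7, 37.8 and 38.0 CPM in hypoxia, with no overlap, a log2 fold change of -0.42 ± 0.06 (adjusted p = 2.34e-06). SDHA, which oxidizes succinate, fell by 0.36 ± 0.05 on the log2 scale (adjusted p = 4.95e-06). The membrane anchors SDHC and SDHD fell by 0.22 ± 0.05 (adjusted p = 0.00106) and 0.34 ± 0.06 (adjusted p = 0.000117) on that scale. For these 3 genes too, no hypoxia library reached the lowest normoxia library.

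In complex III, 7 of 9 genes fell with DMSO: 5 of 6 small subunits and 2 of the 3 core and Rieske proteins. UQCR10, a small subunit bound to cytochrome c1, was at 64.0, 56.0, 58.9 and 55.0 CPM in normoxia and 44.3, 39.4, 44.4 and 36.5 CPM in hypoxia. No libraries overlapped, and its log2 fold change was -0.52 ± 0.08 (adjusted p = 1.07e-05). UQCR11 fell by 0.49 ± 0.10 (adjusted p = 0.000184) and UQCRQ by 0.42 ± 0.09 (adjusted p = 0.000387) on the log2 scale, though in both a hypoxia library overlapped the normoxia range. UQCRFS1, the Rieske iron-sulfur protein, fell by 0.37 ± 0.07 (adjusted p = 9.43e-05). UQCRC1, a core protein, had a log2 fold change of -0.09 ± 0.06 (adjusted p = 0.216).

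In complex IV all 10 ubiquitous subunits fell with DMSO, as did COX7A2L, which joins complexes into supercomplexes, making 11 of 13 tested genes. COX7B, on the X chromosome, was at 38.8, 41.6, 36.7 and 33.9 CPM in normoxia and 26.7, 24.0, 33.1 and 23.5 CPM in hypoxia. The highest hypoxia library, number 3, was the shallowest of the series and lay just below the lowest normoxia library. The log2 fold change was -0.56 ± 0.08 (adjusted p = 2.53e-06). COX5A fell by 0.36 ± 0.06 (adjusted p = 6.42e-05), COX6A1 by 0.36 ± 0.09 (adjusted p = 0.003) and COX4I1, the regulatory subunit of most tissues, by 0.34 ± 0.07 (adjusted p = 0.000196) on the log2 scale. COX6B1 fell by 0.34, COX8A by 0.31, COX7A2 by 0.30 and COX7A2L by 0.16 on that scale. COX7A2L no longer passed in 7 of the 16 fits that each left out 1 library.

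COX4I2 is the form of subunit 4 known from hypoxic and lung tissue, and its gene (chr20:31637888-31645006, GRCh38) had 0 counts in all 8 normoxia libraries. It had 14, 12, 1 and 5 counts in hypoxia DMSO and 5, 11, 6 and 14 in hypoxia SLC-0111, so every hypoxia library held at least 1. The counting error of a count of 0 allows a floor of 3 counts over the normoxia group. Its measured hypoxia level was 15.3-fold that floor with DMSO and 10.4-fold with SLC-0111. These folds do not include the counting error of the hypoxia counts. It did not pass the filter on low counts. COX4I2 remained a trace next to COX4I1: per exon length it made up 0.206% ± 0.0593 (SD, n = 4) of the pair in hypoxia with DMSO and 0.153% ± 0.0356 with SLC-0111.

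The other tissue-linked forms were near the limit of detection. COX6A2, of heart and muscle, had 0 counts in every library. COX7B2 had 1 count and COX8C, of testis, 2 counts in normoxia DMSO, and both had 0 in the other groups. COX7A1, of heart and muscle, was at 0.751 CPM in normoxia DMSO and 0.93 CPM in hypoxia DMSO (log2 fold change 0.22 ± 0.33, adjusted p = 0.611). NDUFA4L2 is a relative of NDUFA4 known as a target of the hypoxia-inducible factor in other cells. It was at 0.256, 0.499, 0.866 and 0.367 CPM in normoxia DMSO and 0.484, 0.406, 1.49 and 0.425 CPM in hypoxia DMSO. The groups overlapped, and the highest value rests on 5 counts in the shallowest library. Its log2 fold change was -0.02 ± 0.42 (adjusted p = 0.974). Per exon length it made up 0.676% ± 0.363 (SD, n = 4) of the pair with NDUFA4 in normoxia and 1.13% ± 0.638 in hypoxia. These shares overlapped, at 0.347% to 1.19% and 0.723% to 2.08%.

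In complex V, 14 of 20 tested genes fell with DMSO. The F1 head and central stalk, where ATP is formed, gave 4 of 5, the peripheral stalk 3 of 4, the small membrane subunits 4 of 5, and the inhibitor ATP5IF1, which blocks reversal of the enzyme, 1 of 1. ATP5F1A and ATP5F1B, the α and β subunits and the most abundant transcripts of the complexes by count, fell by 0.29 ± 0.06 (adjusted p = 0.000129) and 0.35 ± 0.06 (adjusted p = 3.17e-05) on the log2 scale. ATP5IF1 fell by 0.31 ± 0.08 (adjusted p = 0.0033) and ATP5MD, a small subunit linked to dimers of the enzyme, by 0.46 ± 0.08 (adjusted p = 1.67e-05).

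The c ring is made of identical proteins that 3 genes encode with different import sequences. ATP5MC1 had the largest fall of the 84 genes. It was at 46.2, 40.6, 43.1 and 40.8 CPM in normoxia DMSO and at 30.0, 20.1, 33.9 and 19.3 CPM in hypoxia DMSO. The hypoxia libraries split, with 1 and 3 well above 2 and the unnumbered one, and all were below normoxia. The log2 fold change was -0.81 ± 0.12 (adjusted p = 2.59e-05), and the level fell by 42.9%.

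ATP5MC3 fell by 0.45 ± 0.08 on the log2 scale (adjusted p = 3.35e-05). ATP5MC2 was at 122, 116, 117 and 117 CPM in normoxia and 112, 102, 117 and 102 CPM in hypoxia, which overlapped at 1 library (log2 fold change -0.13 ± 0.07, adjusted p = 0.121). Per exon length, ATP5MC1 held 13.9% ± 0.588 (SD, n = 4) of the c ring transcripts in normoxia and 11.3% ± 1.91 in hypoxia, ATP5MC2 11.8% and 14.8%, and ATP5MC3 74.3% and 73.9%. With SLC-0111 the shares in normoxia and hypoxia were 12.3% and 10.5% for ATP5MC1 and 13.9% and 15.8% for ATP5MC2.

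**Figure D3:**
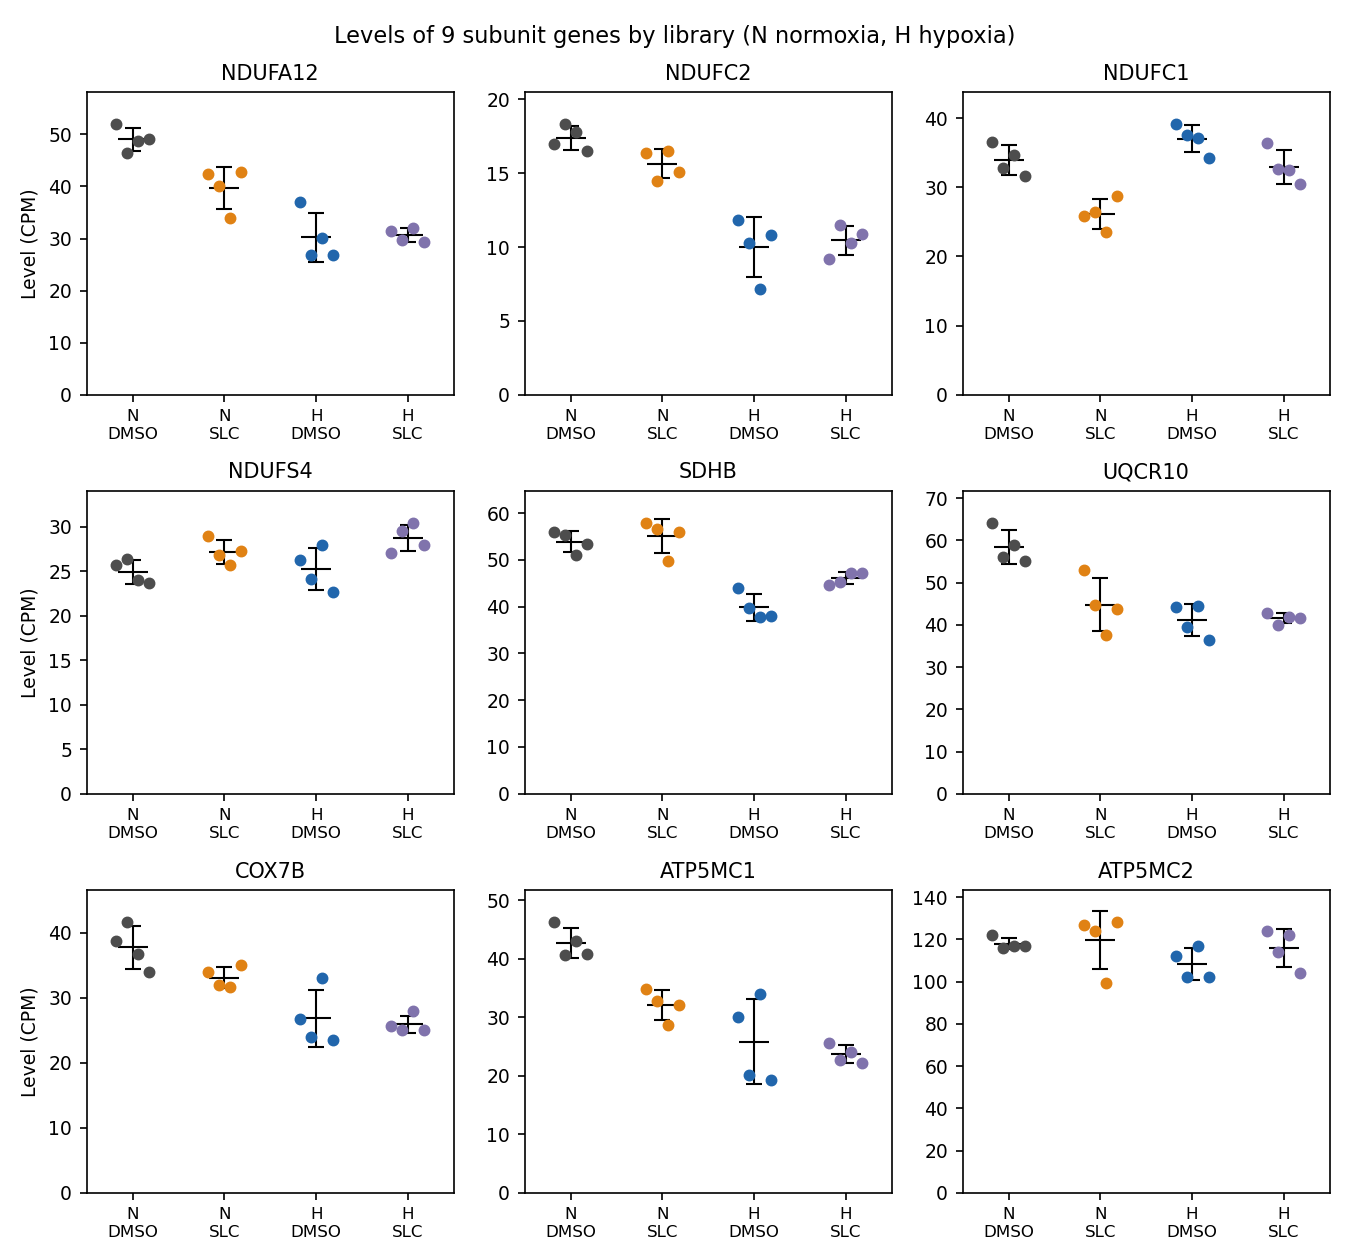
Level in CPM (vertical axis, from 0) of 9 subunit genes in each library, with points for libraries and bars for the mean and SD of 4. ATP5MC1, NDUFA12 and COX7B fall in hypoxia, NDUFC1 is lowest in normoxia with SLC-0111 (23.5 to 28.8 CPM), and ATP5MC2 keeps overlapping groups.

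Promoter letters of 1 gene per complex are shown, each a gene that fell in hypoxia with DMSO. UQCR10 and COX5B did not pass in hypoxia with SLC-0111, and SDHA and COX5B did not pass with SLC-0111 in normoxia. The genes were picked by hand. COX5B had the smallest fall of the 10 ubiquitous complex IV subunits in hypoxia with DMSO (log2 fold change -0.23). The motifs of factors known to act on respiratory genes are in capitals. The stretches are the 200 bases before the RefSeq gene start on GRCh38.p14, read on the strand of the gene. The capitals are GCGCA, any base, then GCGC (nuclear respiratory factor NRF1), CCGGAAGT (GABPA, also called NRF2) and ACGTG, either strand. ACGTG is 1 form of the hypoxia-inducible factor core, and the form GCGTG was not searched.
NDUFA12: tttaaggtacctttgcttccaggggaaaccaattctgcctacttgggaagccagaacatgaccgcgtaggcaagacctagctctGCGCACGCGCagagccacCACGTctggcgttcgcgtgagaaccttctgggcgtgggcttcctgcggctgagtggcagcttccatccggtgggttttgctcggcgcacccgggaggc
SDHA: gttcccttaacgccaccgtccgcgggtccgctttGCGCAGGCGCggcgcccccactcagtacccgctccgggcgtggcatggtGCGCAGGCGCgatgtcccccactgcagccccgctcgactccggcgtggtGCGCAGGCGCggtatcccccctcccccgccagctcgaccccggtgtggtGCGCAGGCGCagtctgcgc
UQCR10: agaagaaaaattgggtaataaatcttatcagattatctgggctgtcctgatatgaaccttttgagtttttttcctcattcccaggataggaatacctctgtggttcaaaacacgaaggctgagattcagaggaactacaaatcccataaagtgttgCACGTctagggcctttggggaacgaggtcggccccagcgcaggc
COX5B: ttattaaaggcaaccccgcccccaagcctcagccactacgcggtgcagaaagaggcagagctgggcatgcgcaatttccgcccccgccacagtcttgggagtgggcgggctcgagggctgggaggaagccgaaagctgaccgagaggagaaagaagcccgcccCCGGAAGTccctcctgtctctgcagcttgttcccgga
ATP5MC1: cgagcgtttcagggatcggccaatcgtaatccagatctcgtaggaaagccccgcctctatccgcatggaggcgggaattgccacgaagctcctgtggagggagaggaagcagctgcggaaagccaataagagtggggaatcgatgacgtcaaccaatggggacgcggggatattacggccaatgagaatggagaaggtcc
They lie at chr12:95003698-95003897 (minus strand) for NDUFA12, chr5:218120-218319 (plus) for SDHA, chr22:29767169-29767368 (plus) for UQCR10, chr2:97645862-97646061 (plus) for COX5B and chr17:48892587-48892786 (plus) for ATP5MC1. SDHA carries 4 NRF1 matches within repeats, at 166, 117, 68 and 19 bases before the start. NDUFA12 has 1 NRF1 match 116 bases before the start and an ACGTG core 98 bases before it. ATP5MC1, the gene that fell most, has none of the motifs searched in these letters.

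Motifs were counted in windows from 250 bases before to 50 after the start, on both strands, for the 71 of the 90 genes with an entry in the RefSeq promoter table. The NRF1 letters were in 17 of the 71 genes (23.9%) and in 8.58% of all 15843 promoters. GABPA letters were in 10 (14.1%, against 6.19%), and the YY1 letters AANATGGCG in 16 (22.5%, against 4.81%). The ACGTG core was in 18 (25.4%), close to the 23.7% of all promoters. The letters TCAAGGTCA of estrogen-related receptors were in 1 (1.41%, against 0.24%). No match of 1 motif overlapped a match of another in these genes.

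The matches did not line up in 1 direction with the calls. Among the genes with a promoter entry, 47 fell in hypoxia with DMSO and 20 were tested and not called. NRF1 letters were in 9 of the 47 (19.1%) and 7 of the 20 (35.0%), GABPA letters in 8 (17.0%) and 2 (10.0%), YY1 letters in 10 (21.3%) and 6 (30.0%), and ACGTG in 11 (23.4%) and 6 (30.0%). These shares were not tested, and a match is a description of letters, not of binding.

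With SLC-0111 present, 41 of the 84 subunit genes fell in hypoxia. In the normoxia libraries 1, 3, 4 and unnumbered, the summed level of all genes was 6653, 6249, 5691 and 6424 CPM, and in the hypoxia libraries 1 to 4 it was 5593, 5401, 5728 and 5287 CPM. The ranges overlapped, since normoxia SLC-0111 4 lay below hypoxia SLC-0111 3, and the ratio of the means was 0.88. The genes that fell are 48.8% of the 84, against 24.3% of all tested genes called lower, and 1 rose, against 23.9% of all called higher. The median log2 fold change was -0.17, with -0.03 over all tested genes. All hypoxia libraries lay below all normoxia libraries for 30 genes, against 21.4% of all tested genes. Of the 9 lineage markers, 3 fell, among them ALB (-0.96), and 5 rose, with HNF4A at 0.31 and KRT8 at 0.25. Their summed level was 8790 to 10100 CPM in normoxia SLC-0111 and 9880 to 10700 CPM in hypoxia SLC-0111. Of the 3 markers of other cells, COL1A1 (-0.52) and ACTA2 (-0.27) fell, with sums of 89.3 to 98.3 and 79.5 to 85.1 CPM. The part of these markers was not tested.

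By complex, 14 of 38, 3 of 4, 5 of 9, 8 of 13 and 11 of 20 genes fell. NDUFC2 (-0.56 ± 0.08, adjusted p = 6.57e-06), UQCR11 (-0.50 ± 0.09, adjusted p = 6.91e-05) and NDUFB7 (-0.47 ± 0.08, adjusted p = 4.96e-05) had the lowest log2 fold changes among genes at 1 CPM or more. ATP5MC1 was at 34.9, 32.8, 28.7 and 32.1 CPM in normoxia and 25.6, 22.7, 24.1 and 22.2 CPM in hypoxia, with no overlap and a log2 fold change of -0.44 ± 0.12 (adjusted p = 0.00452). All 5 small membrane subunits of complex V fell, ATP5ME among them (-0.33 ± 0.11, adjusted p = 0.0142). The low genes NDUFA4L2 (-1.45 ± 0.38, adjusted p = 0.00285) and COX6B2, the testis form of COX6B1 (-1.59 ± 0.53, adjusted p = 0.0154), also fell, on totals of 108 and 37 counts in normoxia and 45 and 14 counts in hypoxia.

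The 2 hypoxia comparisons share no library. Of the 59 genes that fell with DMSO, 37 (62.7%) also fell with SLC-0111, and these are 90.2% of the 41. The matching shares over all tested genes were not computed, so these shares are not shown to be particular to the subunit genes. The remaining 4 of the 41, ATP5ME, COX6B2, NDUFA4L2 and NDUFV3, passed the test with SLC-0111 and not with DMSO, and are named because the count is small. The difference between the 2 effects of hypoxia did not pass in any of them, with adjusted p-values of 0.552, 0.507, 0.153 and 0.595. NDUFC1 was the gene that rose. It was at 25.9, 26.4, 23.5 and 28.8 CPM in normoxia SLC-0111 and 36.4, 32.6, 32.5 and 30.5 CPM in hypoxia SLC-0111, with no overlap, and its log2 fold change was 0.33 ± 0.07 (adjusted p = 0.000266). Its hypoxia values were within the range of the DMSO libraries or close to it, while its normoxia values were below every other library of the series.

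In normoxia, SLC-0111 lowered a smaller set. Of the 84 genes, 21 (25.0%) fell and 0 rose, against 11.2% and 12.4% of all tested genes. At an unadjusted p under 0.05 there were 33 lower and 1 higher, against 3001 lower and 3362 higher of all 18385 tested genes. The median log2 fold change was -0.12, with 0.02 over all tested genes. For 20 genes all SLC-0111 libraries were below all DMSO libraries, against 14.5% of all tested genes. This comparison uses the same normoxia DMSO libraries as the hypoxia comparison in DMSO. Of the 9 lineage markers, KRT8 (-0.52) and KRT18 (-0.50) fell and 3 rose, APOA1, GPC3 and HNF4A, by 0.35, 0.32 and 0.28 on the log2 scale. Of the 3 markers of other cells, COL1A1 and ACTA2, known from fibroblasts, rose by 0.92 and 0.29. PECAM1, the most abundant of the 3, was not called (log2 fold change 0.12). Its mean was 53.6 CPM in normoxia DMSO and 58.2 CPM in normoxia SLC-0111. COL3A1 and DCN, also known from fibroblasts, did not pass the filter on low counts. In the same order of groups, COL3A1 averaged 0.0241 and 0.0066 CPM, and DCN 0.0096 and 0.00899 CPM. With SLC-0111 the summed levels were 8790 to 10100 CPM for the lineage and 89.3 to 98.3 CPM for the other cells, the latter above every normoxia DMSO library. The part of these markers was not tested.

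Complex I gave 9 of these genes, complex II 0 of 4, complex III 2, complex IV 2 and complex V 8 of 20. NDUFC1 fell by 0.38 ± 0.07 on the log2 scale (adjusted p = 0.000209), NDUFS5 by 0.33 ± 0.07 (adjusted p = 0.00208) and NDUFA12 by 0.31 ± 0.08 (adjusted p = 0.008). ATP5F1D, the δ subunit of the central stalk, was at 57.3, 54.2, 53.1 and 51.6 CPM with DMSO and 44.4, 38.6, 35.0 and 43.6 CPM with SLC-0111. The groups stood apart, with a log2 fold change of -0.42 ± 0.08 (adjusted p = 0.000523). ATP5MC1 fell by 0.41 ± 0.11 (adjusted p = 0.0137) and ATP5PD, of the peripheral stalk, by 0.35 ± 0.10 (adjusted p = 0.0197) on the log2 scale. In complexes III and IV, UQCR10 fell by 0.39 ± 0.08 (adjusted p = 0.000713), UQCRFS1 by 0.20 ± 0.07 (adjusted p = 0.0292), COX8A by 0.23 ± 0.08 (adjusted p = 0.0416) and COX6B1 by 0.19 ± 0.06 (adjusted p = 0.0394). Of the 16 fits that each left out 1 library, COX8A no longer passed in 8, COX6B1 in 7, UQCRFS1 in 5, ATP5PD in 4 and ATP5MC1 in 1. NDUFC1, NDUFS5, NDUFA12, ATP5F1D and UQCR10 passed in all of them. SDHA and SDHB, with log2 fold changes of -0.04 ± 0.05 and 0.03 ± 0.06, did not pass.

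The count of 21 depended on single libraries and on the scaling. Over the fits that each left out 1 library it ran from 6 to 27, and it was 36 with library size alone in place of TMM. It was 6 without normoxia SLC-0111 4, 8 without normoxia SLC-0111 3 or normoxia DMSO 1, 9 without normoxia DMSO 2 and 13 without normoxia DMSO 3, and 5 with the protein-coding share of a library as a covariate (ATP5F1D, NDUFA11, NDUFC1, NDUFS5 and UQCR10).

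In hypoxia, SLC-0111 left the summed level at a ratio of 1.01 to DMSO, and few genes were called. Of the 84, 2 rose (2.38%) and 0 fell, against 9.14% and 7.11% of all tested genes. At an unadjusted p under 0.05 there were 6 higher and 2 lower, against 2825 higher and 2411 lower of all 18385 tested genes. The median log2 fold change was -0.01, the same as over all tested genes. SDHB was at 44.7, 45.3, 47.2 and 47.2 CPM with SLC-0111 and at 44.0, 39.7, 37.8 and 38.0 CPM with DMSO, so the groups did not overlap, as held for 3 of the 84 genes in this direction against 9.74% of all. Its log2 fold change was 0.20 ± 0.06 (adjusted p = 0.0234). Of the 9 lineage markers, 4 rose, ALB the most (0.57), and KRT8 and KRT18 fell (-0.34 and -0.38), and of the 3 markers of other cells COL1A1 rose by 0.79. Their part was not tested.

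NDUFS4, an accessory subunit of the NADH module, was at 27.1, 29.5, 30.4 and 28.0 CPM with SLC-0111 and 26.3, 24.1, 28.0 and 22.7 CPM with DMSO, where the groups overlapped (log2 fold change 0.21 ± 0.07, adjusted p = 0.0285). Neither gene passed without hypoxia DMSO 2, without the unnumbered hypoxia DMSO library or without hypoxia SLC-0111 3, and SDHB alone passed without hypoxia SLC-0111 2. Without hypoxia DMSO 1 and 3 together, 13 genes rose.

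The SLC-0111 effect in hypoxia minus that in normoxia tests whether oxygen altered the response. This difference was above 0 in 69 of the 84 genes, against 8544 of 18385 tested genes, with a median of 0.13 on the log2 scale against -0.02. It passed the test in 1 gene, UQCR10 (0.42 ± 0.11, adjusted p = 0.0279), which is 1.19% of the 84 against 2.87% of all tested genes called higher and 3.13% called lower. At an unadjusted p under 0.05 there were 18 genes higher and 1 lower, against 1938 higher and 2002 lower of all 18385 tested genes.

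UQCR10 was at 52.9, 44.8, 37.7 and 43.8 CPM in normoxia SLC-0111 and 42.8, 40, 41.9 and 41.6 CPM in hypoxia SLC-0111. Its 3 groups other than normoxia DMSO overlapped, and normoxia DMSO stood above them all. Its call was lost in 8 of the 16 fits that each left out 1 library, with adjusted p-values of up to 0.0676, and the count of genes was 13 without hypoxia DMSO 1 and 2 without normoxia SLC-0111 1 or hypoxia SLC-0111 4.

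Many subunit genes lie against or across other genes, and no source used here states the strand setting of the counting. For 59 genes, less than 10% of the exon bases are shared with another gene. The median of their mean level over all 16 libraries was 54.9 CPM. For 17 genes with 10% to 40% it was 13.8 CPM, and for 14 genes with 40% or more it was 3.91 CPM. In the last class, 10 genes were under 10 CPM by that mean. Among them, with levels in normoxia DMSO, were NDUFV2, a core subunit of the NADH module (82.9% shared, 2.33 CPM), and the accessory subunit NDUFA7 (78.7%, 0.50 CPM). ATP5PO of the peripheral stalk (70.3%, 9.07 CPM) and NDUFB8 of the membrane arm (71.7%, 2.34 CPM) were others. The part of the overlap in these levels was not tested.

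In hypoxia with DMSO, 43 of 55, 12 of 17 and 4 of 12 tested genes of these classes fell, with medians of -0.31, -0.36 and -0.16 on the log2 scale. The readthrough entries ATP5MF-PTCD1 and NDUFC2-KCTD14 share 100% of their exon bases with other genes; the latter had 0 counts throughout. Processed copies took few reads: 149 pseudogenes of these families held 0.169% to 0.314% as many counts as the genes themselves. UQCRHL, an intronless relative of UQCRH, was at 0.852 CPM in normoxia DMSO, and reads of the 2 genes may be split between them.

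**Figure D4:**
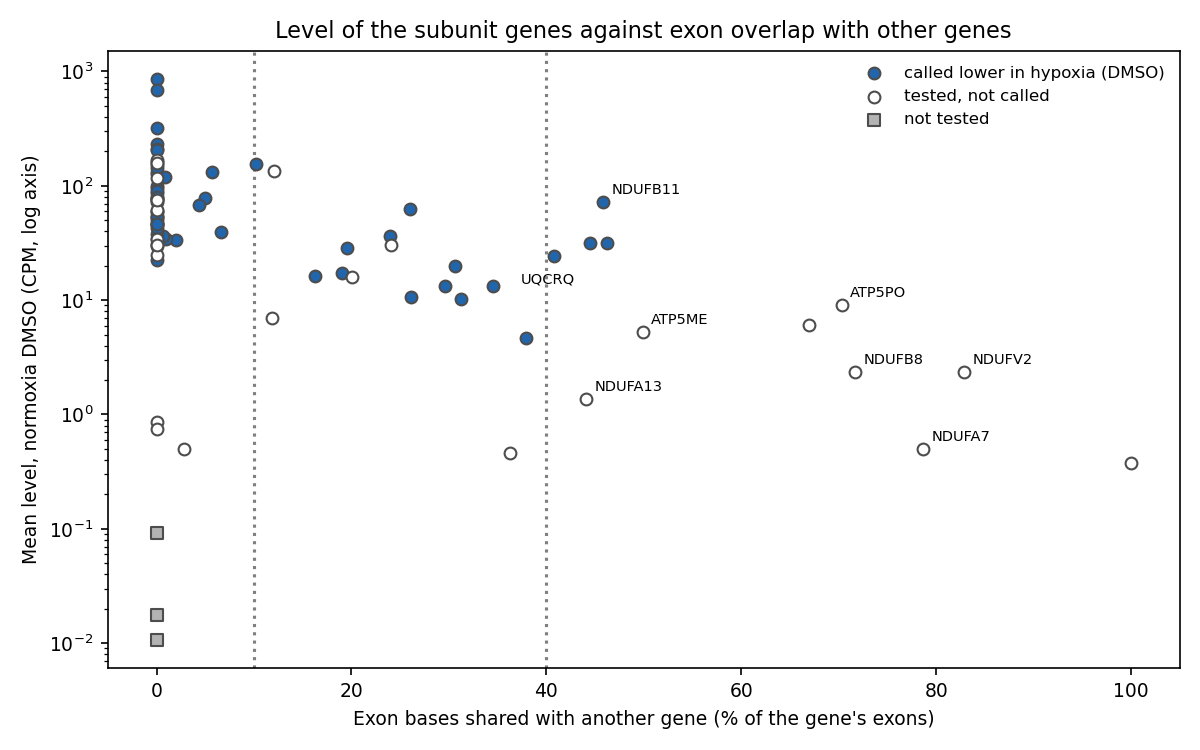
Mean level in normoxia DMSO (vertical log axis, CPM) against the percent of exon bases shared with another gene (horizontal axis), with 1 point per gene of those above 0; dotted lines mark 10% and 40%. Genes with 40% or more shared bases are mostly under 10 CPM and are less densely filled with blue, the color of the genes called lower in hypoxia with DMSO (4 of 12).

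The rest of the pathway was read from lists of known genes, whose counts in hypoxia with DMSO stand against 24.8% of all tested genes called lower and 25.0% called higher. The 13 protein-coding genes of the mitochondrial genome, which supply the partners of these subunits, all fell in hypoxia with DMSO, with a median log2 fold change of -0.96, and 9 fell with SLC-0111 (median -0.55, against 24.3% of all tested genes called lower). MT-ND2, of complex I, went from 1670 ± 122 to 518 ± 206 CPM with DMSO (SD, n = 4, log2 fold change -1.69 ± 0.26, adjusted p = 0.000124). With SLC-0111 in hypoxia 5 of the 13 rose and 0 fell, against 9.14% and 7.11% of all tested genes. MT-ND4 rose by 0.72 ± 0.12 on the log2 scale (adjusted p = 0.000768). With SLC-0111 in normoxia MT-CO1, of complex IV, rose by 0.37 ± 0.11 (adjusted p = 0.0168). No other did, against 12.4% of all tested genes called higher.

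Assembly factors fell in hypoxia with DMSO in 11 of 16 tested genes for complex I, 1 of 4 for II, 4 of 6 for III, 12 of 23 for IV and 3 of 4 for V, and 1 rose for complex I and 1 for complex II. NDUFAF2, which binds assembling complex I in the place NDUFA12 later takes, fell by 0.99 ± 0.11 on the log2 scale (adjusted p = 9.35e-08). BCS1L, which inserts the Rieske protein, fell by 0.81 ± 0.08 (adjusted p = 1.67e-08), and COA7, a complex IV factor, by 0.80 ± 0.07 (adjusted p = 5.57e-10). CYCS, cytochrome c, fell by 0.64 ± 0.07 (adjusted p = 7.28e-08). In its list of electron carriers and coenzyme Q enzymes, 6 of 17 fell (35.3%) and 4 rose (23.5%), against 24.8% and 25.0% of all tested genes.

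Of 12 tested regulators of mitochondrial gene expression, 7 fell and 3 rose in hypoxia with DMSO, where 24.8% of all tested genes were called lower and 25.0% higher. PPARGC1B, a coactivator of respiratory genes, went from 12.6 ± 1.21 to 3.55 ± 0.701 CPM (log2 fold change -1.76 ± 0.11, adjusted p = 3.24e-12), and its relative PPRC1 fell by 1.00 ± 0.08 (adjusted p = 1.19e-09). The factor NRF1 rose by 0.37 ± 0.07 (adjusted p = 0.000148). Of 7 mitochondrial targets of the hypoxia-inducible factor, 6 rose and 1 fell, with PDK1, which inhibits pyruvate dehydrogenase, at 10.4 ± 0.433 CPM in normoxia and 291 ± 55.9 CPM in hypoxia (log2 fold change 4.82 ± 0.12, adjusted p = 1.82e-16). Of 13 citric acid cycle genes 7 fell and 1 rose. Among mitochondrial ribosomal proteins, 57 of 77 fell and 3 rose, with a median of -0.28 on the log2 scale.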

How the data were processed

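The 16 libraries of total RNA fall into 4 groups by compound and oxygen, as the sample labels give them. The deposited table holds the authors' raw counts of reads for 58735 genes. The submitters' processing notes name HISAT2 (also HISAT) and GRCh38, HTSeq, MultiQC 1.10.1 and edgeR 3.4.0, with no strand setting. Symbols came from GENCODE 29.

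Counts were fitted with edgeR 4.0.16 in R 4.3.3 (quasi-likelihood, robust, TMM, filterByExpr, 1 mean per group, 12 residual degrees of freedom) over 18385 genes, with Benjamini-Hochberg adjustment over all of them and calls at 0.05. The script was checked on simulated counts. Levels are CPM of the TMM-scaled library size; a total of 3298106 puts 3 counts at 0.893 CPM in the shallowest library. A count of 0 allows up to 3 counts, which covers counting error only.

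The genes and lists were chosen with earlier results of these data known. Named with values are paralog pairs and complex II, up to 3 called genes per complex, comparison and direction with the largest fold change at 1 CPM or more, the highest and lowest per exon length, and up to 3 called genes per other list. NDUFS1, UQCRC1, NDUFV2, NDUFA7, ATP5PO, NDUFB8 and NRF1 were added by role or after their values were seen. COX5B was named for its printed promoter letters. Alternatives were other scalings, filters and tools (DESeq2 1.42.0, limma 3.58.1), covariates, and leaving out libraries.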

Additional observations from a re-analysis of the deposited data

Results flagged for a closer look

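Of 176 sets of 4 libraries checked for a value far from the others, 7 were picked out, and chance alone picks out about 1 in 20. ATP5F1B was highest in normoxia DMSO 1, at 710 CPM. In normoxia SLC-0111 4, the library with the highest share of the mitochondrial genome, ATP5MC2 was lowest at 99.3 CPM and UQCRH lowest at 121 CPM. In normoxia DMSO 4, ATP5MD was lowest at 62.4 CPM and COX8A lowest at 11.8 CPM. NDUFA4 was highest in hypoxia SLC-0111 3, at 109 CPM. NDUFA4L2 was highest in hypoxia DMSO 3, at 1.49 CPM, on 5 counts. The effect of SLC-0111 differed between hypoxia and normoxia for UQCR10, by 0.42 on the log2 scale in the test of the difference.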

How the results depend on the processing

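The fall of the subunit genes in hypoxia kept its direction under every alternative run: 57 to 66 genes fell with DMSO and 32 to 58 with SLC-0111 across the planned fits, 48 to 61 and 28 to 47 when 1 library was left out, and 47 and 31 in the numbered libraries only. None of the 72 called values of 43 subunit genes changed direction under the alternatives run. Genes that rose with DMSO numbered 1 with no filter (COX4I2), 1 with the protein-coding share as covariate (NDUFV2), 1 without hypoxia DMSO 1 and 3 together (NDUFA9), and 0 to 1 with 1 library left out (NDUFV2 without hypoxia DMSO 1). With SLC-0111, 2 rose with no filter, 3 with the covariate and 1 in each fit that left out 1 library. Genes lowered by SLC-0111 in normoxia, 21, numbered 36 with library size alone, 12 with a length trend removed, 5 with the covariate and 6 to 27 with 1 library left out; genes raised numbered 1 with no filter, 3 with the covariate, 1 without hypoxia DMSO 1 and 3, and 0 to 1 with 1 library left out. In hypoxia, genes raised by SLC-0111, 2, numbered 0 with library size alone, 1 with the length trend removed, 0 with only the groups compared, 9 with the covariate, 13 without hypoxia DMSO 1 and 3, 0 in the numbered libraries only and 0 to 3 with 1 library left out; genes lowered numbered 1 with library size alone (NDUFC1), 1 with limma-voom (COX6B2) and 0 to 1 with 1 library left out. The difference of effects, 1 gene, became 0 with library size alone, 0 with the length trend removed, 8 with no filter, 32 without hypoxia DMSO 1 and 3, 0 in the numbered libraries only and 0 to 13 with 1 library left out. The length trend moved the median of all genes in hypoxia with DMSO to -0.10 and that of the subunit genes to -0.38. The causes were not tested.

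The replicate numbers were not used to pair the libraries in the main fit, though libraries of some numbers resembled each other. Of 18 pairs with the same number, 8 correlated above 0.1 (from -0.0314 to 0.351), and those of number 4 at 0.238 to 0.351. Of the 14 numbered libraries, 8 correlated best with their own number. With the number as a block on those 14, 37 genes fell with SLC-0111 in normoxia, 4 rose and 2 fell with it in hypoxia, 2 rose with hypoxia under SLC-0111, and 10 differed between oxygen levels. Leaving out hypoxia DMSO 1 and 3, and the fit on numbered libraries only, were chosen after seeing the data. Depth limits the forms under 1 CPM: in hypoxia DMSO 3, 3 counts are 0.893 CPM.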
